A study of Mus musculus with 36 samples.

Results

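CD11c-positive microglia of amyloid-depositing mice were compared with CD11c-negative microglia of wild-type mice, both sorted from cortex. The libraries were taken by their titles: those of APP animals 1 to 4 from cortex in the CD11c-positive gate on 1 side, and those of WT animals 1 to 4 from cortex in the CD11c-negative gate on the other. They were 13 of the 36 libraries of the series. Libraries of 1 animal were summed, which gave 4 animals on each side, 8 of 23 such sums, with 587 CD11c-positive APP cells and 390 WT cells of 2657 cells in all. The comparison changes genotype and gate together, so an effect of the transgenes and an effect of the CD11c gate cannot be told apart by it. CD11c-negative cells of APP cortex, 454 cells of 4 animals, are given beside the main values as the group that shares its genotype with one side and its gate with the other.

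All mice were males aged 6 months. APP mice are of the APP/PS1 line, which carries the APPswe allele and deposits amyloid in the brain, and WT mice are its controls. The labels' protocols describe a cold mechanical isolation, after which cells were sorted as live nucleated CD11b-high, CD45-intermediate cells into multiwell plates, and sequenced after a Smart-seq2-based library preparation. The genotype tag of the labels goes against the title for 1 CD11c-positive APP animal (number 3) and for 2 WT animals (numbers 2 and 3). Titles were followed throughout, and the effect of the tag is given with the main counts. A first number in the titles is 1 or 2 for WT and 3 or higher for APP libraries, so anything it marks cannot be told apart from genotype.

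Microglia are the resident macrophages of the brain. At rest they carry a set of surface receptors and transporters that other macrophages largely lack, among them Tmem119, P2ry12 and Cx3cr1. Around amyloid plaques a subset of them takes up CD11c, an integrin chain encoded by Itgax, and turns on genes of lipid uptake, lysosomal digestion and secretion through a pathway that depends on the lipid receptor Trem2 and its adaptor Tyrobp. CD11c was the basis of the sort, so Itgax and the genes that travel with it describe the gated cells and are no independent discovery.

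Among the genes called, the lipid genes Apoe, Lpl and Ch25h, the protease inhibitor gene Cst7 and the growth factor gene Igf1 were many times higher in the gated cells than in WT cells. Lysosomal proteases such as Ctsb and Ctsd, abundant in WT cells too, were higher by smaller factors. Tmem119, P2ry12, Cx3cr1, Sema4b and Maf were lower. Levels of single genes are an animal's summed counts as CPM of its total after adjustment by TMM, so they are relative and not absolute amounts. Summed levels of gene lists are CPM of the unadjusted total. Each change is a log2 fold change with its SE. It was called where the quasi-likelihood test of edgeR, fitted over 14892 genes and adjusted by Benjamini and Hochberg's method, gave an adjusted p under 0.05. Of these genes 92 rose (0.618%) and 68 fell (0.457%), 160 in all (1.07%). The median change was 1.52 among the risen and −1.39 among the fallen genes, against 0.15 over all genes tested. In 159 of the 160 the animals of the 2 groups did not overlap, the exception being Tspan18. Over all genes tested the 4 CD11c-positive animals lay above all WT animals in 7.93% and below them in 2.52%. The labels do not say which animals shared a litter or a sorting day. The spread behind the p values was estimated within all groups of the series, including hippocampal and CD11c-negative sums. It is therefore not the spread between these animals alone.

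The numbers of called genes depended on single animals and on the scaling. Without CD11c-positive APP animal 1, 2, 3 or 4 the fit called 30, 52, 56 or 30 risen and 60, 44, 47 or 50 fallen genes. Without WT animal 1, 2, 3 or 4 it called 53, 71, 40 or 34 risen and 47, 64, 50 or 61 fallen genes. In all 8 of these fits 59 of the 160 genes stayed called, 23 risen and 36 fallen. Under RLE scaling, which moved the median of all genes from 0.15 to 0.02, 69 genes rose and 95 fell. Leaving out the animals of the 2 groups whose tag goes against the title left 3 APP and 2 WT animals, and 22 genes rose and 31 fell. Sums of the other groups stayed in that fit whatever their tag. Every one of the 160 kept its sign in each of these fits. A call that held in all 8 fits without 1 animal is described below as held throughout. That phrase covers only these 8 fits, and calls so described were lost in other settings. Igf1, Ch25h, Ccl6, Cd52, Cd68 and B2m were among those lost without the animals whose tag goes against the title. Lpl was lost with groups by the tag, and Apoe, Ctsb and Ctsd in a limma voom fit.

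**Figure D1:**
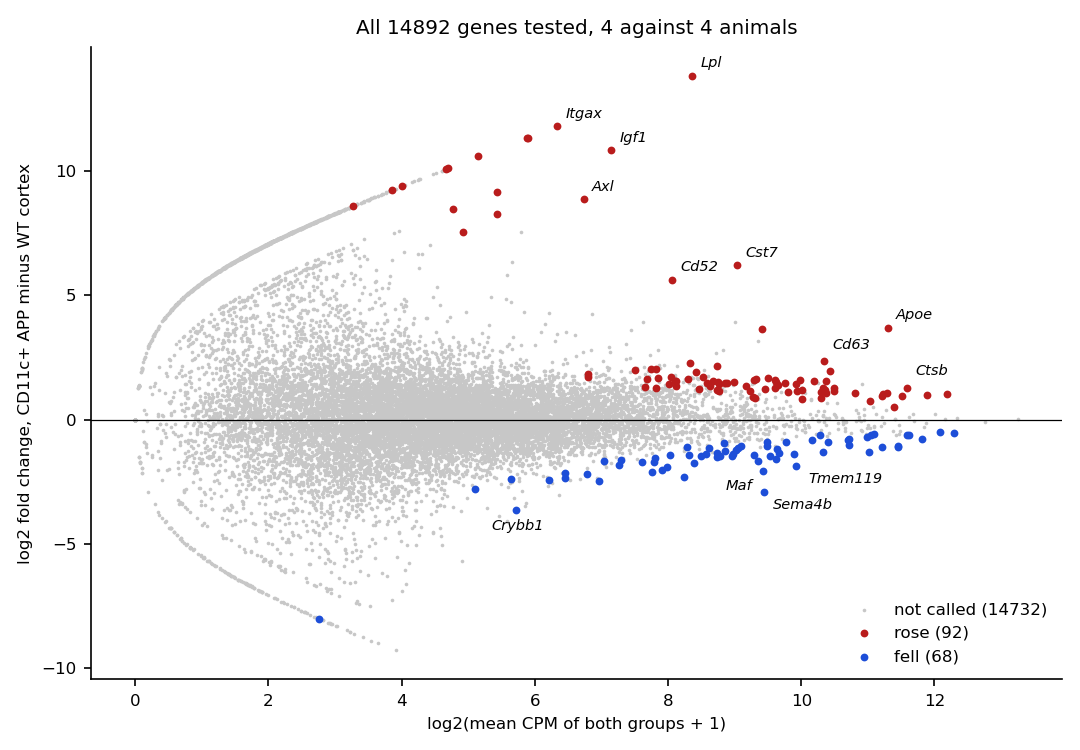
Each point is 1 of the 14892 genes tested: the x axis is log2 of the mean CPM of both groups plus 1, the y axis the log2 fold change of CD11c-positive APP over WT cortex. The 92 risen genes are red, the 68 fallen genes blue and the rest grey; at low levels the grey cloud spreads far from 0 and holds few called genes.

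The labelled cell type was checked first. Of 10 microglial marker genes 3 fell (Tmem119, P2ry12 and Cx3cr1) and none rose, and their summed level was 4820 to 5768 CPM in CD11c-positive APP and 7999 to 11250 CPM in WT animals. Markers of neutrophils were at 0 in both groups, as were Cd163 of border macrophages, Klrd1 of lymphocytes and Alas2 of red blood cells. Summed neuronal markers stood at 568 to 1650 CPM against 204 to 1264 CPM in WT, astrocyte markers at 732 to 1893 CPM against 428 to 1612 CPM, and oligodendrocyte markers at 393 to 575 CPM against 211 to 458 CPM. Endothelial markers stood at 8.47 to 112 CPM against 5.40 to 137 CPM, lymphocyte markers at 9.64 to 33.8 CPM against 9.55 to 96.8 CPM, and border macrophage markers at 0 to 28.2 CPM against 0.875 to 55.7 CPM. No gene of these 6 lists was called. Dendritic cell markers stood at 53.1 to 78.9 CPM against 30.2 to 126 CPM in WT, with 0 called. Monocyte markers stood at 1.34 to 39.7 CPM against 0.637 to 27.1 CPM, also with 0 called. Counts of 2 or more markers of another cell type were found in 161 of 587 gated and 61 of 390 WT cells. Without those cells 102 genes rose and 89 fell, among them 71 of the 92 risen and 64 of the 68 fallen genes.

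CD11c-positive cells held more genes per cell at equal depth. After every cell was thinned to 5000 counts, an animal's median cell held 783 ± 119 genes (SD, n = 4; range 656 to 932) in CD11c-positive APP and 550 ± 40.1 genes (range 498 to 590) in WT cortex. The groups did not overlap (exact permutation test over animals, two-sided, p = 0.0286, the smallest p that 4 against 4 allows). Mitochondrial genes took 2.68 ± 0.566% against 1.27 ± 0.484% of counts (exact p = 0.0286). Depth did not separate the groups, with a median of 20211 against 20316.5 counts per cell, and each animal's sum held 3404089 to 4484427 counts in CD11c-positive APP and 1570266 to 3707275 in WT. With the median genes per cell as a covariate in a fit of these 2 groups, 2 genes rose (Lpl and Igf1) and 1 fell (Sema4b). That measure does not overlap between the groups, so the 2 cannot be told apart by such a fit.

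The gate showed in Itgax (ENSMUSG00000030789, chromosome 7, 128129547 to 128150657, GRCm38). It stood at 194, 85.0, 188 and 169 CPM in CD11c-positive APP animals and at 0 CPM in all 4 WT animals. CD11c-negative APP animals held 0, 0, 0.902 and 4.08 CPM. The gated group was at least 543-fold higher than WT, computed against 3 counts over the WT group (adjusted p = 0.0143). This call was lost without WT animal 1 or 3 (adjusted p up to 0.052). A count of Itgax was found in 17.2% of CD11c-positive and 0% of WT cells, so the transcript was not detectable at this depth in most cells whose surface carried the protein. For 0 of 390 cells the share of cells with a count may be up to 0.769%, a limit of counting error only.

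The genes of the transgenes were looked at next. App, the amyloid precursor gene, stood at 86.6, 219, 161 and 170 CPM in CD11c-positive APP and 138, 227, 47.3 and 156 CPM in WT animals. These ranges overlap, and the change of 0.16 ± 1.005 did not pass (adjusted p = 1). Prnp, whose promoter drives the transgenes of this line, stood at 190, 231, 336 and 358 CPM against 13.98, 75.8, 35.1 and 79.2 CPM. The 2 groups did not overlap, yet the change of 2.45 ± 0.96 did not pass (adjusted p = 0.302). Of 11 tested genes of amyloid precursor processing 0 were called.

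Promoter windows of 4 genes that carry the comparison are printed here, the 250 bases before a RefSeq start on GRCm38.p6 in the direction of the gene: Cd63 and Sema4b as the risen and fallen genes with the smallest p, and Apoe and Cst7 as risen genes at high level. The Cd63 window lies before a transcript start that is 8356 bases inside the annotated gene. They lie at chr10:128909095-128909344 (plus strand), chr7:80186620-80186869 (plus strand), chr7:19699189-19699438 (minus strand) and chr2:150570165-150570414 (plus strand). Capitals mark matches on either strand to GAGGAAG, the core bound by PU.1, the lineage factor of macrophages.
Cd63: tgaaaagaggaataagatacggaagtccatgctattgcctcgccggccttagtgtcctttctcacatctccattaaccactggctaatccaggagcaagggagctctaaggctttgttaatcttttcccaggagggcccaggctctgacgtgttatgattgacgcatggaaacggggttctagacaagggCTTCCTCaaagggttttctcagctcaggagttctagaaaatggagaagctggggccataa
Sema4b: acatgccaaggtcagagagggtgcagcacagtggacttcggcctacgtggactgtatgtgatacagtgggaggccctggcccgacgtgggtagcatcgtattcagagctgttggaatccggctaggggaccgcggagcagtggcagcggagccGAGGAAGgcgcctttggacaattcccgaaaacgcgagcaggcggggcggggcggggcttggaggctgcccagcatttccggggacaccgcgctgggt
Apoe: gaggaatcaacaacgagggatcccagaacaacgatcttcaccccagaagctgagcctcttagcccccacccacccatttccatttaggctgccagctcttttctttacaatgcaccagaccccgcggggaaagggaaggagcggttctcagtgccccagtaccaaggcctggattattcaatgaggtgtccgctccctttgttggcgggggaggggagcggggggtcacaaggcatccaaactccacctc
Cst7: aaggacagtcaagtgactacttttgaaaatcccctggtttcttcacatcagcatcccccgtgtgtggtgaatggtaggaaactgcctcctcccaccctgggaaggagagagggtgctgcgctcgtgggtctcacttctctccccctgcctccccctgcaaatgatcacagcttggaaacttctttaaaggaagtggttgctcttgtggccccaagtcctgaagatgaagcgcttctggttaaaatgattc
Cd63 and Sema4b each hold 1 such match, and Apoe and Cst7 hold none. The other motifs searched on both strands, CACGTG (the E-box of lysosomal gene regulators) and TGANTCA (the AP-1 motif), have no match in these 4 windows. GAGGAAG was in 8 of 57 risen genes with a window (14.04%), 9 of 51 fallen genes (17.6%), 13.3% of 9635 tested genes with one and 10.6% of all 32851 windows. CACGTG was in 7.02% of risen, 13.7% of fallen and 9.98% of tested genes, and in 6.02% of all windows. TGANTCA was in 7.02%, 5.88% and 5.21% of these genes and in 6.75% of all windows. A match describes the letters of the window and shows no binding. The shares of risen and fallen genes rest on few genes and were not tested.

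Genes of the plaque-associated program held the most risen genes of any list. This list was chosen with earlier results of these data known, so it is no independent evidence of direction. Of 26 tested members 12 rose and 0 fell, and the median change was 3.92. Called members of this and later lists stand beside 0.618% risen and 0.457% fallen among all genes tested. The summed level of this list, without TMM scaling, was 16500 to 20120 CPM in CD11c-positive APP and 2698 to 4146 CPM in WT animals.

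Apoe (ENSMUSG00000002985, chromosome 7, 19696109 to 19699188) encodes the lipid carrier apolipoprotein E. It stood at 5006, 5100, 4141 and 4416 CPM in CD11c-positive APP animals and at 170, 584, 290 and 402 CPM in WT animals. The lowest gated animal lay far above the highest WT animal, and the change was 3.69 ± 0.54 (adjusted p = 0.000266), held throughout. CD11c-negative APP animals held 368, 258, 266 and 740 CPM, within or near the WT range. A count was found in 99.3% of CD11c-positive and 22.1% of WT cells.

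Lpl (ENSMUSG00000015568, chromosome 8, 68880491 to 68907448) encodes lipoprotein lipase, which frees fatty acids from lipoproteins. It stood at 518, 773, 772 and 564 CPM in the gated animals and at 0 CPM in each WT animal, at least 2167-fold higher (adjusted p = 0.000428), held throughout. CD11c-negative APP animals held 97.5, 102.3, 19.9 and 18.3 CPM, between the other groups. A count was found in 44.1% of CD11c-positive and 0 of 390 WT cells.

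Cst7 (ENSMUSG00000068129, chromosome 2, 150570415 to 150578944) encodes cystatin F, an inhibitor of lysosomal cathepsins. It stood at 979, 1094, 1075 and 966 CPM against 13.98, 0, 40.2 and 0.609 CPM in WT. The groups were far apart, and a count was found in 66.6% against 1.54% of cells. The fitted change was 6.21 ± 1.51 (adjusted p = 0.0399). This call was lost in every fit that left out 1 animal except the one without WT animal 3, with adjusted p up to 0.132.

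Igf1, a secreted growth factor, stood at 287, 293, 190 and 352 CPM against 0, 0, 0 and 0.609 CPM, the last being 1 count, against 4128 counts in the gated group (adjusted p = 0.00167). Ch25h, which makes 25-hydroxycholesterol, stood at 31.8, 218, 86.6 and 129 CPM against 0 CPM in each WT animal, at least 370-fold higher (adjusted p = 0.00572). Both calls held throughout, and for both every gated animal lay above every WT animal. Axl, a receptor tyrosine kinase that helps clear dying cells, stood at 148, 309, 179 and 206 CPM against 0, 0, 1.58 and 0 CPM (8.87 ± 2.02, adjusted p = 0.0253). Its call was lost without CD11c-positive animal 1, 2 or 4 and without WT animal 1, 2 or 4 (adjusted p up to 0.0989).

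Cd63 (ENSMUSG00000025351, chromosome 10, 128900989 to 128912822), a tetraspanin of late endosomes, had the smallest p of the risen genes. It stood at 2224, 2427, 1849 and 2139 CPM against 525, 488, 420 and 272 CPM, a change of 2.34 ± 0.21 (adjusted p = 1.99e-07). A processed copy, Cd63-ps, rose too, and reads of the 2 may be split between them. Cd9, another tetraspanin, rose from 525 ± 125 to 1408 ± 169 CPM (1.42 ± 0.17, adjusted p = 3.18e-05). Fth1, the ferritin heavy chain, rose from 681 ± 185 to 1975 ± 98.9 CPM (1.54 ± 0.19, adjusted p = 3.18e-05). Each of these 3 calls held throughout.

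Ccl6, a chemokine, rose from 100 ± 73.4 to 1256 ± 273 CPM (3.64 ± 0.68, adjusted p = 0.00483). Cd52, a small surface glycoprotein, rose from 10.3 ± 11.6 to 523 ± 116 CPM (5.63 ± 1.17, adjusted p = 0.0133). Serpine2, a secreted protease inhibitor, rose from 589 ± 190 to 1735 ± 309 CPM (1.56 ± 0.24, adjusted p = 0.000489). These 3 calls also held throughout. Other members were higher without passing: Lyz2 stood at 962 ± 177 against 62.8 ± 42.8 CPM (adjusted p = 0.0545), Clec7a at 220 ± 77.4 against 11.2 ± 22.4 CPM (adjusted p = 0.288) and Spp1 at 76.7 ± 48.3 against 2.46 ± 4.92 CPM (adjusted p = 0.310). For Clec7a 1 WT animal held 44.8 CPM and the other 3 held 0, and without that animal, WT animal 1, the gene passed (adjusted p = 0.00835). In the other 7 of the 8 fits without 1 animal Clec7a was not called (adjusted p up to 0.4898).

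**Figure D2:**
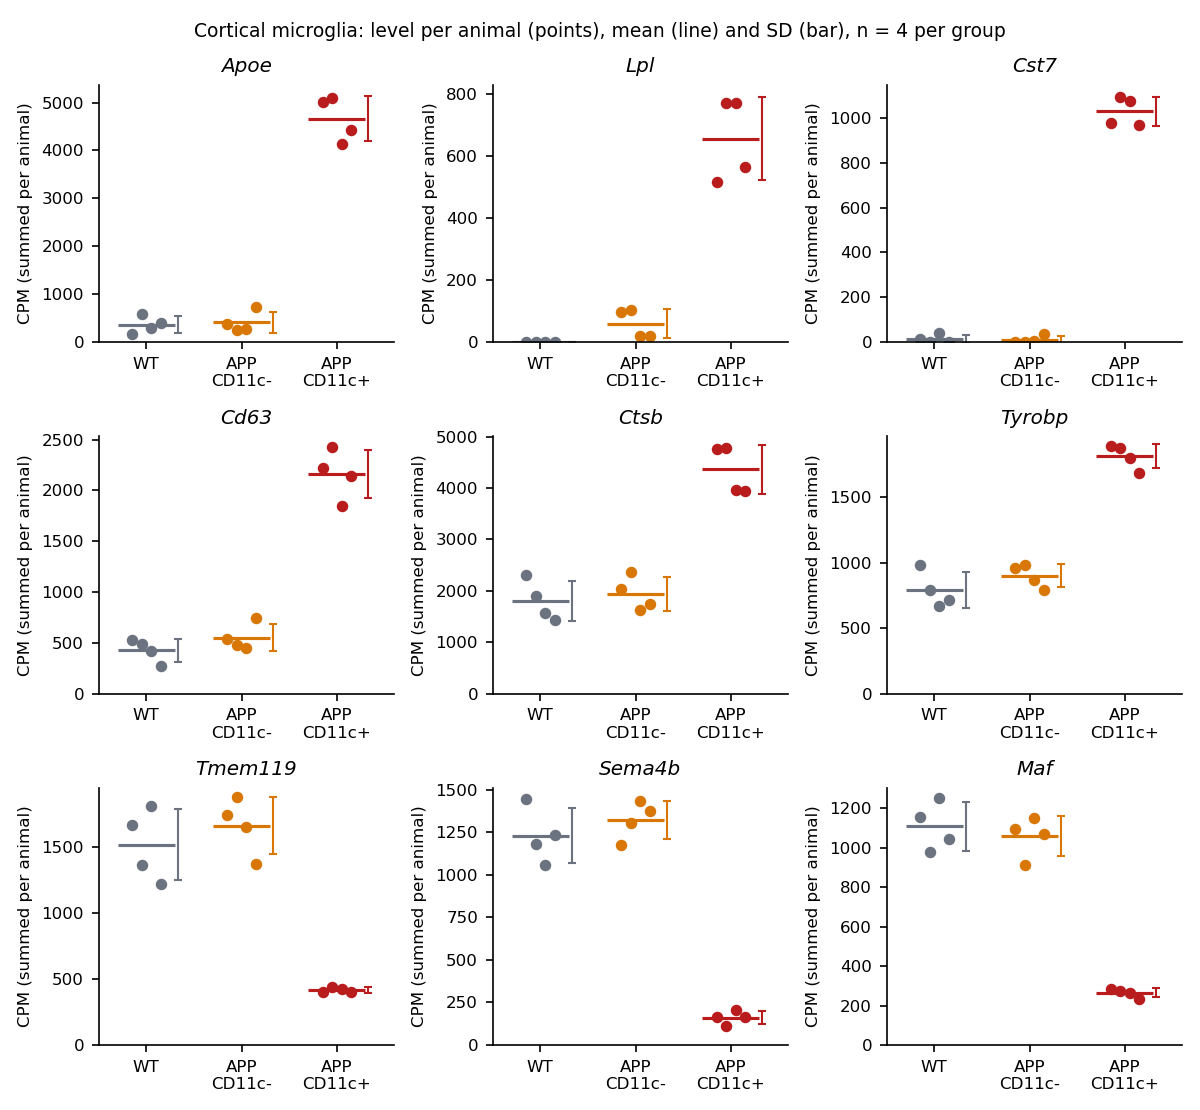
Levels of 9 genes in cortical microglia, in CPM of counts summed per animal, from a baseline of 0. Points are the 4 animals of a group, horizontal lines their mean and bars the SD. Apoe, Lpl, Cst7, Cd63, Ctsb and Tyrobp are high and Tmem119, Sema4b and Maf low in every CD11c-positive APP animal, while CD11c-negative APP animals lie in or near the WT range, except for Lpl.

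Single cells of the gate shared the program. Among cells thinned to 5000 counts, the program's genes took a median of 87 to 107.5 counts per cell in the 4 CD11c-positive APP animals, 9 to 17 in WT and 5.5 to 17 in CD11c-negative APP animals. The 10th percentile of gated cells was 48 counts, and 21 of 384 WT cells (5.47%) and 29 of 440 CD11c-negative APP cells (6.59%) reached it. In turn, 39 of 571 gated cells (6.83%) lay at or below 38 counts, the 90th percentile of WT cells. Homeostatic genes overlapped more: their median was 87 to 93 counts per cell in gated and 132 to 144 in WT animals, with the animals' 10th to 90th percentiles spanning 43 to 145.4 and 66.8 to 210.8. Gated cells with a count of Itgax, 15 to 26 per animal, had program medians of 82 to 118.5 counts, and those without one 88.5 to 107. These are descriptions of cells that share animals and plates, with no test.

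**Figure D3:**
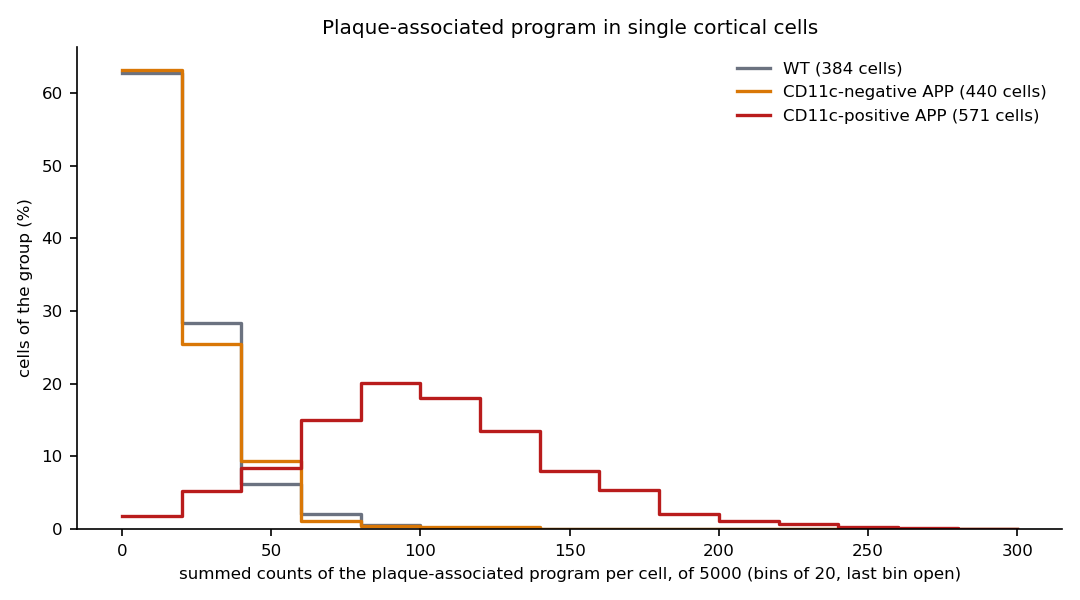
Share of cells (y axis, percent of the group) by summed counts of the plaque-associated program per cell (x axis, of 5000 counts, bins of 20). WT and CD11c-negative APP cells pile up below 40 counts, and CD11c-positive APP cells spread around a single broad peak near 100 counts.

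Trem2 signalling genes changed little as a list. Of 20 tested members 1 rose and 0 fell, with a median of −0.27. The one was Tyrobp (chromosome 7, 30413760 to 30417585), the adaptor of Trem2, at 1886, 1874, 1799 and 1687 CPM against 980, 789, 665 and 717 CPM. The groups did not overlap, and the change was 1.20 ± 0.16 (adjusted p = 6.5e-05), held throughout. Trem2 itself stood at 1818, 1777, 1448 and 1517 CPM against 1506, 886, 924 and 769 CPM. Its groups overlap by 1 WT animal, and the change of 0.68 ± 0.17 missed the threshold (adjusted p = 0.0524). Without that animal, WT animal 1, it passed (0.93, adjusted p = 0.00148). In the other 7 of the 8 fits without 1 animal Trem2 was not called (adjusted p up to 0.3415).

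Lysosomal genes rose as a group in part. Of 35 tested members 10 rose and 0 fell, and the median change was 0.94. Fits without CD11c-positive animal 1, 2 or 4 or without WT animal 4 called 5, 6, 6 and 5 of them. Ctsb (chromosome 14, 63122462 to 63145923), a cysteine protease, stood at 4764, 4787, 3954 and 3944 CPM against 2300, 1889, 1568 and 1437 CPM, a change of 1.28 ± 0.17 (adjusted p = 8.37e-05). Every gated animal lay above every WT animal. Ctsd, the main aspartic protease of lysosomes, rose from 2554 ± 416 to 5032 ± 458 CPM (0.98 ± 0.14, adjusted p = 0.000216), and Ctsz from 1159 ± 142 to 2433 ± 290 CPM (1.07 ± 0.16, adjusted p = 0.000266). Cd68, a glycoprotein of the lysosomal membrane, rose from 752 ± 262 to 1808 ± 193 CPM (1.26 ± 0.22, adjusted p = 0.00183). These 4 calls held throughout.

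The other risen members were Gm2a, Hexa, Gusb, Npc2, Ctss and Cst7. Gm2a, the activator of ganglioside breakdown, rose by 0.94 ± 0.17 (adjusted p = 0.00346) and lost its call only without CD11c-positive animal 1 (adjusted p = 0.0505). Hexa, a subunit of hexosaminidase, rose by 1.40 ± 0.29 (adjusted p = 0.0126), Gusb, a glucuronidase, by 2.28 ± 0.49 (adjusted p = 0.0176) and Npc2, which passes cholesterol out of lysosomes, by 1.59 ± 0.35 (adjusted p = 0.0222). These 3 lost their call in 3, 4 and 5 of the 8 fits without 1 animal. Hexa lost it without CD11c-positive animal 1 and WT animals 3 and 4, Gusb without CD11c-positive animals 2 and 4 and WT animals 3 and 4, and Npc2 without CD11c-positive animals 1, 2 and 4 and WT animals 1 and 4 (adjusted p up to 0.0936). Ctss, which cuts antigen for presentation, rose by only 0.50 ± 0.12 (adjusted p = 0.0491), and held its call only in the fit without WT animal 1.

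Lipid-handling genes followed. Of 21 tested members 6 rose and 1 fell, with a median of 0.79, and fits without CD11c-positive animal 1, 2 or 4 or WT animal 1 called 3 risen genes. Beside Lpl, Apoe, Ch25h and Npc2 these were Soat1, which stores cholesterol as esters, at 824 ± 106 against 371 ± 66.1 CPM (1.15 ± 0.26, adjusted p = 0.0273), and Plin2, which coats lipid droplets, at 52.5 ± 16.7 against 0.109 ± 0.218 CPM, the latter 1 count (adjusted p = 0.0299). Soat1 lost its call in 6 and Plin2 in all 8 fits without 1 animal; only without CD11c-positive animal 3 or WT animal 4 did Soat1 keep it (adjusted p up to 0.147 and 0.118). Lpcat2, which makes platelet-activating factor, fell from 1470 ± 372 to 826 ± 83.3 CPM (−0.83 ± 0.17, adjusted p = 0.00994) and missed the threshold without WT animal 1 (adjusted p = 0.0575). Of 21 cholesterol synthesis genes 1 rose, Insig1, a sensor that holds synthesis in check, from 456 ± 195 to 1279 ± 152 CPM (1.49 ± 0.29, adjusted p = 0.00705), held throughout.

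Genes of protein synthesis and energy metabolism lay higher across their lists. A minority of each list was called, where 0.618% of all genes tested rose. Among the 81 tested genes of cytosolic ribosomal proteins there were 8 rises and 0 falls, with 80 changes above 0 and a median of 1.17. The count was 5, 3, 2 and 1 without CD11c-positive animal 2, WT animal 1, CD11c-positive animal 3 and WT animal 3, and 0 without CD11c-positive animal 1 or 4 or WT animal 4. Of 76 nuclear respiratory chain genes 4 rose (Ndufa1, Uqcrq, Cox6b1 and Cox7a2) and 66 lay above 0, with a median of 0.83. Rps25, of the small subunit, stood at 1705 ± 194 against 796 ± 44.8 CPM (1.10 ± 0.23, adjusted p = 0.0139), and Ndufa1, of complex I, at 363 ± 68.9 against 87.4 ± 21.6 CPM (2.05 ± 0.43, adjusted p = 0.0145). The respiratory count was 0 or 1 in every fit without 1 animal except the one without WT animal 2. The median stayed above 0 under RLE scaling, at 1.04 and 0.71 for these 2 lists.

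Of 13 genes of the mitochondrial genome 5 rose and all lay above 0, with a median of 1.18. mt-Cytb, a subunit of complex III, stood at 3395, 3394, 3117 and 3609 CPM against 1787, 1998, 1475 and 1269 CPM (1.05 ± 0.16, adjusted p = 0.000418), held throughout and with no overlap. Reads of these genes may be shared with nuclear copies that are listed as separate genes, some of which rose as well. The list's count was 2, 1, 3, 1 and 1 without CD11c-positive animal 1 or 4 and WT animal 1, 3 or 4, and 8 without WT animal 2. These 3 lists move with the higher number of genes per cell and the higher mitochondrial share given above, whose part in the result was not tested. Of 21 genes of glycolysis and hypoxia 2 rose, Pkm from 142 ± 112 to 537 ± 92.5 CPM (1.92 ± 0.40, adjusted p = 0.0126) and Aldoa from 225 ± 19.0 to 637 ± 66.6 CPM (1.498 ± 0.35, adjusted p = 0.0299). Both are enzymes of glycolysis. Pkm lost its call without CD11c-positive animal 1 or WT animal 1, 3 or 4 (adjusted p up to 0.0654), and Aldoa in all 8 fits (adjusted p up to 0.156).

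Immune effector lists gave at most 1 called gene each, where 0.618% of all genes tested rose and 0.457% fell. B2m, the light chain of MHC class I, stood at 3312, 3166, 3143 and 2953 CPM against 1991, 1835, 1280 and 1358 CPM. It rose by 0.96 ± 0.15 (adjusted p = 0.000711), without overlap and held throughout, the only one of 14 MHC class I genes. Of 22 interferon genes 1 rose, Ifi27l2a, at 84.5 ± 19.0 against 0.109 ± 0.218 CPM, the latter 1 count (adjusted p = 0.0399); it lost its call in all 8 fits without 1 animal. Of 9 MHC class II genes 0 were called, with 2 lying above all WT animals, against 7.93% of all genes tested. Of 17 inflammatory genes 1 rose, Ccl6. Ccl3, another chemokine, stood at 167 ± 15.04 against 28.2 ± 29.2 CPM and did not pass (adjusted p = 0.395). Of 12 complement genes 1 fell, C5ar2, a receptor for complement C5a, from 1105 ± 319 to 491 ± 135 CPM (−1.17 ± 0.24, adjusted p = 0.011), which missed the threshold without WT animal 3 (adjusted p = 0.0587).

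Homeostatic genes fell as a group in part. Of 26 tested members 8 fell and 0 rose, and the median change was −0.79. Below all WT animals without overlap lay 13 members, against 2.52% of all genes tested. Fits without 1 animal called 6 to 8 fallen members. Counted as numbers of cells with a count, 7 of 25 members fell and the median was −0.10. In that fit the median of all 3807 genes tested was 0.55, and 1162 genes rose and 91 fell.

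Tmem119 (ENSMUSG00000054675, chromosome 5, 113793729 to 113800516), a surface protein of resident microglia, stood at 401, 439, 428 and 400 CPM in CD11c-positive APP and at 1672, 1366, 1812 and 1225 CPM in WT animals. The gated animals differed from each other far less than WT animals did, and no animal of one group reached the other. The change was −1.86 ± 0.15 (adjusted p = 3.29e-08). CD11c-negative APP animals held 1747, 1880, 1654 and 1370 CPM. At 5000 counts per cell a count was found in 36.95% of gated and 70.6% of WT cells.

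P2ry12, the ADP receptor that steers microglial processes, stood at 654, 768, 831 and 691 CPM against 2237, 1658, 1951 and 1473 CPM (−1.31 ± 0.16, adjusted p = 3.18e-05). Cx3cr1, the receptor of the neuronal chemokine fractalkine, stood at 413, 641, 548 and 508 CPM against 1742, 1341, 1421 and 1002 CPM (−1.38 ± 0.17, adjusted p = 3.91e-05). Neither gene overlapped between the groups. Selplg, a selectin ligand, fell from 2142 ± 242 to 1193 ± 81.4 CPM (−0.84 ± 0.11, adjusted p = 3.91e-05), and Slc2a5, a fructose transporter, from 335 ± 60.1 to 104 ± 34.1 CPM (−1.69 ± 0.29, adjusted p = 0.00169). Crybb1, a crystallin used as a microglial marker, fell from 95.7 ± 42.6 to 7.71 ± 3.23 CPM (−3.62 ± 0.64, adjusted p = 0.00277). With Tmem119, these 6 calls held throughout.

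P2ry13, a related receptor, and Ltc4s, the leukotriene C4 synthase, fell by −1.61 ± 0.38 (adjusted p = 0.0307) and −1.49 ± 0.34 (adjusted p = 0.0248). P2ry13 lost its call without CD11c-positive animal 1, 2 or 4 or WT animal 1 or 3, and Ltc4s without CD11c-positive animal 3 or 4 or WT animal 1 or 4 (adjusted p up to 0.117 and 0.1003). Not every gene of the list moved: Csf1r, the receptor microglia need to survive, stood at 881 ± 34.9 against 1236 ± 396 CPM (−0.49 ± 0.18, adjusted p = 0.288), and Cst3, cystatin C, at 6678 ± 329 against 7180 ± 904 CPM (−0.10 ± 0.08, adjusted p = 0.838).

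The smallest p of all genes belonged to a membrane-bound semaphorin gene, Sema4b (chromosome 7, 80186841 to 80226527; ENSMUSG00000030539). It stood at 162, 112, 203 and 164 CPM against 1447, 1182, 1056 and 1235 CPM, and 22.7% of gated against 69.2% of WT cells held a count. The change was −2.94 ± 0.19 (adjusted p = 1.26e-09), and the gene remained called in each of the 14 other settings tried. It was the 1 gene called of 14 semaphorins and plexins.

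Some transcriptional regulators fell. Of 25 microglial transcription factors 1 fell and 0 rose, where 0.457% of all genes tested fell and 0.618% rose. It was Maf (chromosome 8, 115682942 to 115707794), a leucine zipper factor of macrophages, at 286, 273, 266 and 233 CPM against 1158, 977, 1255 and 1044 CPM (−2.07 ± 0.26, adjusted p = 3.91e-05). Its groups lay far apart. Of 20 chromatin regulators 2 fell, the H3K27 demethylase gene Kdm6b from 994 ± 184 to 313 ± 44.1 CPM (−1.67 ± 0.24, adjusted p = 0.000216) and the H3K4 methyltransferase gene Kmt2d from 2577 ± 279 to 1673 ± 121 CPM (−0.62 ± 0.11, adjusted p = 0.00359). All 3 calls held throughout.

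Among risen genes with the largest changes, Rab7b, a small GTPase of late endosomes, stood at 68.8 ± 22.2 CPM against 0 CPM in each WT animal, at least 224-fold higher (adjusted p = 0.0244), and kept its call only without CD11c-positive animal 1. Rell1 and Ctnna3, an alpha catenin gene, stood at 84.5 ± 17.1 and 58.0 ± 28.2 CPM, each against 2 counts in all WT animals (adjusted p = 0.0237 and 0.0398). Rell1 kept its call only without CD11c-positive animal 1 or 3, and Ctnna3 only without WT animal 4.

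Further fallen genes had the largest changes among those past the test. Ptpn1, a tyrosine phosphatase, fell from 399 ± 39.0 to 106 ± 41.8 CPM (−1.91 ± 0.31, adjusted p = 0.000828), and Elmo1, which links engulfment receptors to the cytoskeleton, from 383 ± 92.2 to 94.6 ± 30.3 CPM (−2.02 ± 0.32, adjusted p = 0.000684). Both calls held throughout. Oma1, a mitochondrial protease, fell by −2.49 ± 0.51 (adjusted p = 0.0111) and lost its call without CD11c-positive animal 2 or WT animal 3 (adjusted p up to 0.0957). Slc40a1, the iron exporter ferroportin, fell from 178 ± 71.1 to 38.7 ± 22.3 CPM (−2.20 ± 0.46, adjusted p = 0.0143) and lost its call without CD11c-positive animal 1 or 2 or WT animal 1 (adjusted p up to 0.0725). It stands beside Fth1 in a list of 24 iron and oxidative stress genes, of which 3 rose and 1 fell. The other risen members were Cyba, a subunit of the superoxide-producing NADPH oxidase, at 813 ± 177 against 448 ± 71.7 CPM (0.86 ± 0.19, adjusted p = 0.0244), and Sod1, which removes superoxide, at 2638 ± 172 against 1568 ± 206 CPM (0.75 ± 0.17, adjusted p = 0.0287). Cyba kept its call only without CD11c-positive animal 3 or WT animal 1 or 3, and Sod1 only without WT animal 2. Cmtm7, Il16 and Lpar6 fell by −2.39, −2.37 and −2.13 (adjusted p = 0.02, 0.0351 and 0.0481), and Il16 and Lpar6 lost their calls in all 8 fits without 1 animal. Cmtm7 kept its call only without WT animal 1, 2 or 4.

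Some called genes were picked after their values were seen because they concern signalling. Among receptors, Ptafr, which binds platelet-activating factor, fell from 3838 ± 407 to 1774 ± 231 CPM (−1.11 ± 0.17, adjusted p = 0.000345). Ifngr1, a chain of the interferon gamma receptor, fell from 2265 ± 277 to 1101 ± 157 CPM (−1.04 ± 0.13, adjusted p = 3.91e-05), and Lifr, the leukaemia inhibitory factor receptor, from 967 ± 220 to 459 ± 50.6 CPM (−1.08 ± 0.17, adjusted p = 0.000684). Alox5ap, which activates 5-lipoxygenase, fell from 297 ± 132 to 90.3 ± 43.2 CPM (−1.72 ± 0.36, adjusted p = 0.0139), with the call lost without CD11c-positive animal 3 or WT animal 3 (adjusted p up to 0.0807). Among risen genes picked in the same way, Syngr1, a vesicle membrane protein, rose from 558 ± 262 to 2193 ± 196 CPM (1.97 ± 0.29, adjusted p = 0.000266) and Dusp3, a phosphatase, from 1593 ± 315 to 3204 ± 359 CPM (1.01 ± 0.16, adjusted p = 0.000689). The 5 calls besides Alox5ap held throughout. Zfhx3, a transcription factor gene picked likewise, fell from 1087 ± 129 to 392 ± 89.1 CPM (−1.47 ± 0.20, adjusted p = 9.59e-05), and that call held throughout as well.

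**Figure D4:**
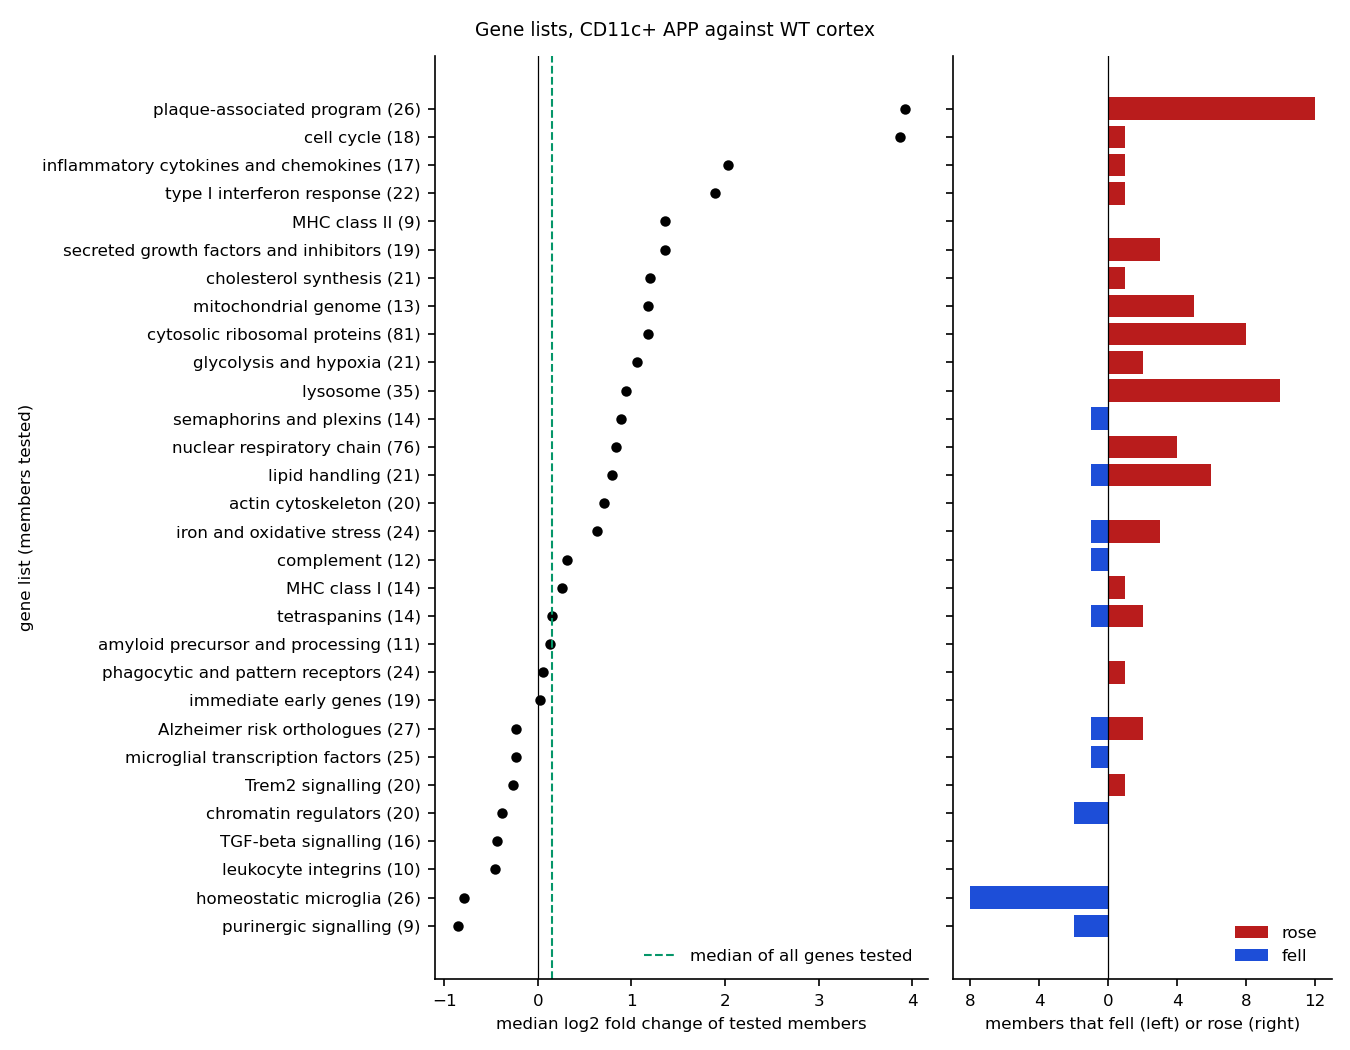
The 30 gene lists other than cell type markers, ordered by the median log2 fold change of their tested members (left, number tested in brackets; the dashed line is the median of all genes tested, 0.15) and the number of members that fell or rose (right). Cell cycle, inflammatory, interferon and MHC class II lists have high medians with at most 1 called gene each; the plaque-associated program and lysosome hold most rises and the homeostatic list most falls.

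The remaining lists are given beside 0.618% risen and 0.457% fallen of all genes tested. Of 19 secreted growth factors and inhibitors 3 rose (Igf1, Serpine2 and Cst7), with a median of 1.35, and of 9 genes of purinergic signalling 2 fell (P2ry12 and P2ry13), with a median of −0.86. Of 18 cell cycle genes 1 rose, Rrm2, a subunit of ribonucleotide reductase, at 26.9 ± 7.29 CPM against 0 CPM in each WT animal, at least 91.6-fold higher (adjusted p = 0.0303). Its call was lost in all 8 fits without 1 animal, and 2.56% of gated cells held a count. Of 27 orthologues of Alzheimer risk genes 2 rose (Apoe and Ctsb) and 1 fell (Picalm, which works in endocytosis, −0.62 ± 0.15, adjusted p = 0.047, held only without CD11c-positive animal 4). Of 14 tetraspanins 2 rose, Cd63 and Cd9, and 1 fell, Tspan18, with 0 CPM in each gated animal and 24.9, 1.74, 19.7 and 0 CPM in WT animals. That gene was called although its groups overlap (adjusted p = 0.047), and only the fits without WT animal 2 or 4 kept the call. Of 10 leukocyte integrins, 16 TGF-beta signalling genes, 20 actin cytoskeleton genes and 19 immediate early genes 0 were called. The integrin list leaves out Itgax, the gene of the gate, which was called. These lists held 2, 0, 9 and 1 genes above and 1, 1, 1 and 2 genes below all WT animals without overlap. Over all genes tested 7.93% lay above and 2.52% below.

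Detection per cell followed the summed levels. With all cells thinned to 5000 counts, Cst7 had a count in 56.9% of CD11c-positive APP and 1.04% of WT cells, Cd63 in 83.7% and 20.1%, Ctsb in 99.0% and 75.8%, Sema4b in 16.6% and 60.7% and Maf in 22.1% and 52.3%. In bulk sums of cells, fewer expressing cells and less RNA per cell cannot be told apart. For the risen genes named here, more of the gated cells held a count at equal depth. Gated cells also held more genes in general at that depth. By numbers of cells with a count, 1162 of 3807 genes tested rose and 91 fell.

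**Figure D5:**
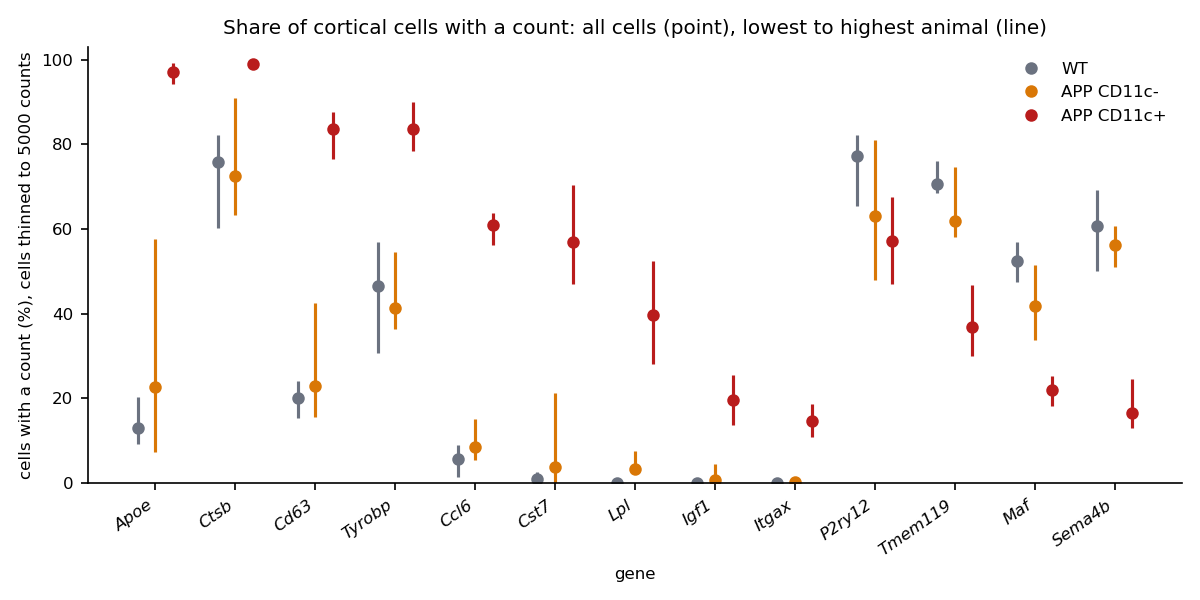
Share of cells (y axis, percent) with at least 1 count after thinning each cell to 5000 counts, for 13 genes (x axis); points are all cells of a group and lines run from the lowest to the highest animal. For Apoe, Ctsb, Cd63, Tyrobp, Ccl6, Cst7, Lpl, Igf1 and Itgax every CD11c-positive APP animal lies above every WT animal, and for Tmem119, Maf and Sema4b every such animal lies below.

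CD11c-negative APP cells set the comparison in context. Against the same WT animals they showed 0 called genes (0.0%) in the same fit, and the plaque-associated and homeostatic lists had medians of 0.16 and 0.10 there. The genotype tag goes against the title for CD11c-negative APP animals 1 and 2, beside the WT animals named above. Within APP cortex 183 genes were called (1.23%): 78 genes rose (0.524%) and 105 fell (0.705%) in CD11c-positive against CD11c-negative cells. These comparisons share animals or controls with the one described, so they are given side by side and not as support. Titles give the 2 gates of APP cortex the same animal numbers. The model has no term for the animal, so this pairing was not used. A second number in the titles, after the first number named above, never had the same value in these 2 gates. Whatever it marks therefore changes along with the gate.

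The same comparison in hippocampus, with 3 CD11c-positive APP sums, of which 2 pool libraries titled with a pair of animal numbers, against 4 WT animals, called 309 genes (2.07%), 176 risen (1.18%) and 133 fallen (0.893%). Of the genes called in cortex, 50 of 92 risen and 39 of 68 fallen genes were called there in the same direction, which is 50 of 176 and 39 of 133 hippocampal calls, and 89 and 68 had the same sign. Titles give sums of both regions the same animal numbers, and both pooled hippocampal sums name animal 2. In hippocampus the genotype tag goes against the title for all 3 CD11c-positive APP sums and for WT animal 2. Libraries of WT animal 1 carry both tags there. The model has no term for the animal and treats all sums as independent, which bears on the test of the difference between the regions. That test called 1 of 14892 genes (0.00672%), the transcription factor gene Elf2, with 1381 at an unadjusted p under 0.05. Elf2 stood at 28.5 ± 11.1 against 38.6 ± 23.2 CPM in cortex and at 42.1 ± 17.2 against 0.0704 ± 0.141 CPM in hippocampus, a difference of −8.68 (adjusted p = 0.0336). This call was lost without any 1 CD11c-positive APP animal and without WT animal 1 or 4 (adjusted p up to 0.136). Of the cortical genes, Dusp3 rose in cortex (1.01) and stood at −0.06 in hippocampus, but the difference did not pass after adjustment (unadjusted p = 0.000134).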

How the data were processed

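Single microglia were sequenced in 36 libraries, and the count tables deposited by the authors hold whole-number read or molecule counts per gene and cell barcode. Per the submitters' processing notes, UMI-tools 0.5.3, HISAT2 2.1.0 and featureCounts 1.6.0 were used with the builds GRCm38 and mm10. The sources used here do not state whether molecules were merged by their identifiers. Of nonzero entries 27.0% equal 1, and 88.8% of counts lie in entries of 20 or more, so counting intervals would cover counting error only.

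Cells with fewer than 200 genes were removed (3 of 2660 barcodes), and none exceeded 20% mitochondrial counts. No doublet caller was run, since cells were sorted into wells. The 13 libraries used share plate barcodes: 52 of 82 distinct barcodes occur in all of them. Counts were summed by group and animal number of the titles. No 2 of the 8 sums hold identical values (28 pairs, lowest chi-square per degree of freedom 26.3). The genotype tag differs from the title in 17 of 36 libraries, 4 of them among the 13 used here.

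The 23 sums of 6 groups entered 1 edgeR 4.0.16 quasi-likelihood model (R 4.3.3, TMM scaling, filterByExpr, 17 residual degrees of freedom), with Benjamini-Hochberg adjustment over 14892 genes and a common biological coefficient of variation of 1.37. Other settings used limma 3.58.1 and DESeq2 1.42.0, other scalings, gene filters, cell filters and groupings, a replicate block, and each animal left out in turn. Measures per cell were taken after thinning each cell to 5000 counts, which left out 16 CD11c-positive APP and 6 WT cells. Animal values were compared with exact permutation tests. A fold against a group at 0 uses 3 counts over the group.

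Gene symbols and positions are those of GENCODE on GRCm38, and promoter sequences those of RefSeq on GRCm38.p6, in windows that matched 57 of 92 risen and 51 of 68 fallen genes. Named genes were those of the gate and transgenes, the 16 risen and 12 fallen genes with the largest change, at least 50 CPM and no overlap (predicted, mitochondrial and ribosomal genes left out), and from each list the called members with the 4 smallest p or, with none called, its most abundant member. Only some of them are printed, further genes were added after their values were seen, and some results under this rule are not reported here. Members and lists were chosen with earlier results of these data known.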

Additional observations from a re-analysis of the deposited data

Results flagged for a closer look

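In 13 of 176 groups of 4 animals looked at, 1 animal lay apart from the other 3, with a gap above Dixon's critical value for 4 samples. Chance gives about 1 in 20 such groups, but that rate does not apply where the other 3 animals are at 0, since the gap then equals the range even for a single count. Among WT animals, animal 1 held 44.8 CPM of Clec7a, animal 2 held 310 CPM of Pkm (the next 92.9) and 1257 CPM of mt-Co3 (the next 760), and animal 3 held 9.85 CPM of Spp1 and 1.58 CPM of Axl; for Clec7a, Spp1 and Axl the other 3 held 0. WT animal 4 held 0.609 CPM of Igf1 and 1.22 CPM of Ctnna3, and WT animal 2 held 0.436 CPM of Plin2 and 0.436 CPM of Ifi27l2a, each with 0 in the other 3 animals.

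Among CD11c-positive APP animals, animal 2 was highest for Spp1 at 149 CPM (the next 54.3) and for Npc2 at 1389 CPM (the next 1088). Animal 1 was lowest for Lpcat2 at 701 CPM (the next 862), and animal 3 was lowest for C5ar2 at 288 CPM (the next 555). The change of Elf2 from WT differed between cortex and hippocampus by −8.68 on the log2 scale, by a test of the difference itself.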

How the results depend on the processing

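Of the 160 called genes, none changed sign in an alternative that tested it (150 to 160 of them were tested in each), while the number of calls moved widely. Against 92 risen and 68 fallen genes, the 2 groups alone gave 180 and 91, DESeq2 298 and 219, limma voom 478 and 139, the filter at 50 CPM 128 and 152, cells thinned to 5000 counts 153 and 80, and numbers of cells with a count 1162 and 91. RLE scaling gave 69 and 95, so that 42.1% of calls rose in place of 57.5%. Leaving out the animals of the 2 groups whose tag goes against the title gave 22 and 31. Groups by the tag gave 29 and 23, and genes per cell as a covariate 2 and 1. With the animal number as a replicate block the counts were 39 and 31; the labels do not say that a number marks a shared litter or day, and deviations of same-numbered animals correlated at 0.113, −0.028, −0.062 and 0.103, so the numbers were not taken to pair the animals. Leaving out 1 animal gave 30 to 71 risen and 44 to 64 fallen genes. Genes whose change differed between the regions numbered 1, but 336 by DESeq2, 38 by limma voom, 3 with no gene filter, 0 at 50 CPM and 0 to 1 without 1 cortical animal. The difference in genes per cell was 183 to 275 genes and that in mitochondrial share 1.23 to 1.65 percentage points without 1 animal, where 3 against 4 animals allow no p under 0.0286 and several gave 0.0571. Changes that were not called took the other sign for App (−0.69 with genes per cell as a covariate, −0.26 without cells holding other markers, and −0.13 and −0.03 without WT animal 3 and CD11c-positive animal 2, in a range of −0.13 to 0.48 without 1 animal), Csf1r (0.036 by numbers of cells) and Cst3 (0.0013 thinned and 0.0038 by numbers of cells). The cause of these shifts was not tested. The spread between 4 animals and the low counts of many genes limit what could be called.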
